A study of Homo sapiens with 6 samples.

Results

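The chaperones of the cytosol were examined in DND41 cells, an established human line of T-ALL, a leukaemia of T-cell precursors. The set was listed by name and was chosen with earlier results of these data known. Its counts beside those of all genes are therefore descriptive. It holds 53 genes, among them HSP90 and its co-chaperones, HSP70 and HSP110, J-proteins, BAG proteins and other regulators of HSP70. The heat shock factors, the chaperonin CCT and prefoldin are also in it. Of the 53 genes, 51 had a row in the deposited table of 17202 genes. Each of the 51 had a mean of at least 10 normalized counts over the 6 libraries, so all 51 entered the tests. HSPA1A and HSPA1B, the stress-inducible HSP70 genes, were not analysed here.

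RNA was sequenced from 3 libraries of cells given MB1-47, a mitochondrial uncoupler by the series title, and from 3 libraries of cells given the solvent DMSO. Both groups were the same line in RPMI with 10% fetal bovine serum and were collected after 24 h; the dose of MB1-47 is written in the labels as 4 mM, a unit that was not checked. The labels speak of plating in triplicate and say no more on how separate the cultures were, so the p-values here rest on library-to-library spread that could be technical. The values are the authors' DESeq-normalized counts, which are relative levels, and in bulk RNA fewer cells of a type and less RNA per cell cannot be told apart. Library totals ran from 28323706 to 32667526 normalized counts and are not depths; the depth is unknown. DMSO replicate 1 stood apart from the other DMSO libraries on the second principal component (18.5% of the variance), and counts without it are given where they matter. All 9 T-lineage markers in the table had a mean of at least 10, with a summed level of 46033 to 49890 with DMSO and 24790 to 27580 with MB1-47. CD5 was low, at 0, 25.9 and 2.01 in the DMSO libraries, as was CD2 at 38.5, 34.1 and 75.1. All 4 B-lineage markers in the table also had a mean of at least 10, summing to 16118 to 17280 and 6610 to 7227, mostly through CD79A (16526 ± 573 and 6825 ± 391, SD, n = 3). Myeloid and erythroid markers (3 of 6 in the table) summed to 16.6 to 44.9 and 24.5 to 34.9, with CD14 at 0 in DMSO replicate 1 and in each MB1-47 library. Epithelial and stromal markers (3 of 6) summed to 1466 to 1836 and 986 to 1256, nearly all from PDGFRB (1692 ± 230 and 1057 ± 112), with KRT8 at 16.6 ± 21.2 and 33.3 ± 26.6. The part of these shifts in the results was not tested.

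Molecular chaperones bind unfolded chains and help them reach their native form. HSP70 binds short hydrophobic stretches under the control of J-proteins, which deliver the chain and trigger ATP hydrolysis, and of exchange factors such as BAG proteins and HSP110, which release ADP. HSP90 acts later, on near-native clients such as kinases and steroid receptors, and STIP1 hands clients from HSP70 to HSP90. Prefoldin passes new actin and tubulin to CCT, a double ring that folds them in its cavity. Many of these genes are controlled by HSF1, which binds heat shock elements, arrays of inverted GAA units, in their promoters.

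Most cytosolic chaperone transcripts were lower after MB1-47. Of the 51 genes, 35 were lower and 2 higher at an adjusted p below 0.05, and 14 did not pass (limma's moderated test on log2 of the value plus 1, Benjamini-Hochberg adjustment over the 13465 genes tested). Over all genes tested 19.8% were lower and 18.3% higher. The median log2 change of the set was -0.74 against 0.02 for all genes tested, and single genes ran from -1.74 for HSP90AA1 to 1.83 for DNAJB2. The MB1-47 and DMSO libraries did not overlap in 40 of the 51 genes, 38 of them lower with MB1-47, while this held for 49.3% of all genes tested and toward lower values for 25.2%. Among called genes, 11 of the 51 fell at least 2-fold, against 5.99% of all genes tested, and 2 rose at least 2-fold, against 4.75%. Without DMSO replicate 1, 31 were lower and 2 higher. When each library was scaled to the same total, 31 were lower and 2 higher, while the calls over all genes shifted from 2667 lower and 2458 higher to 2061 lower and 3336 higher and the median of all genes from 0.02 to 0.15.

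**Figure D1:**
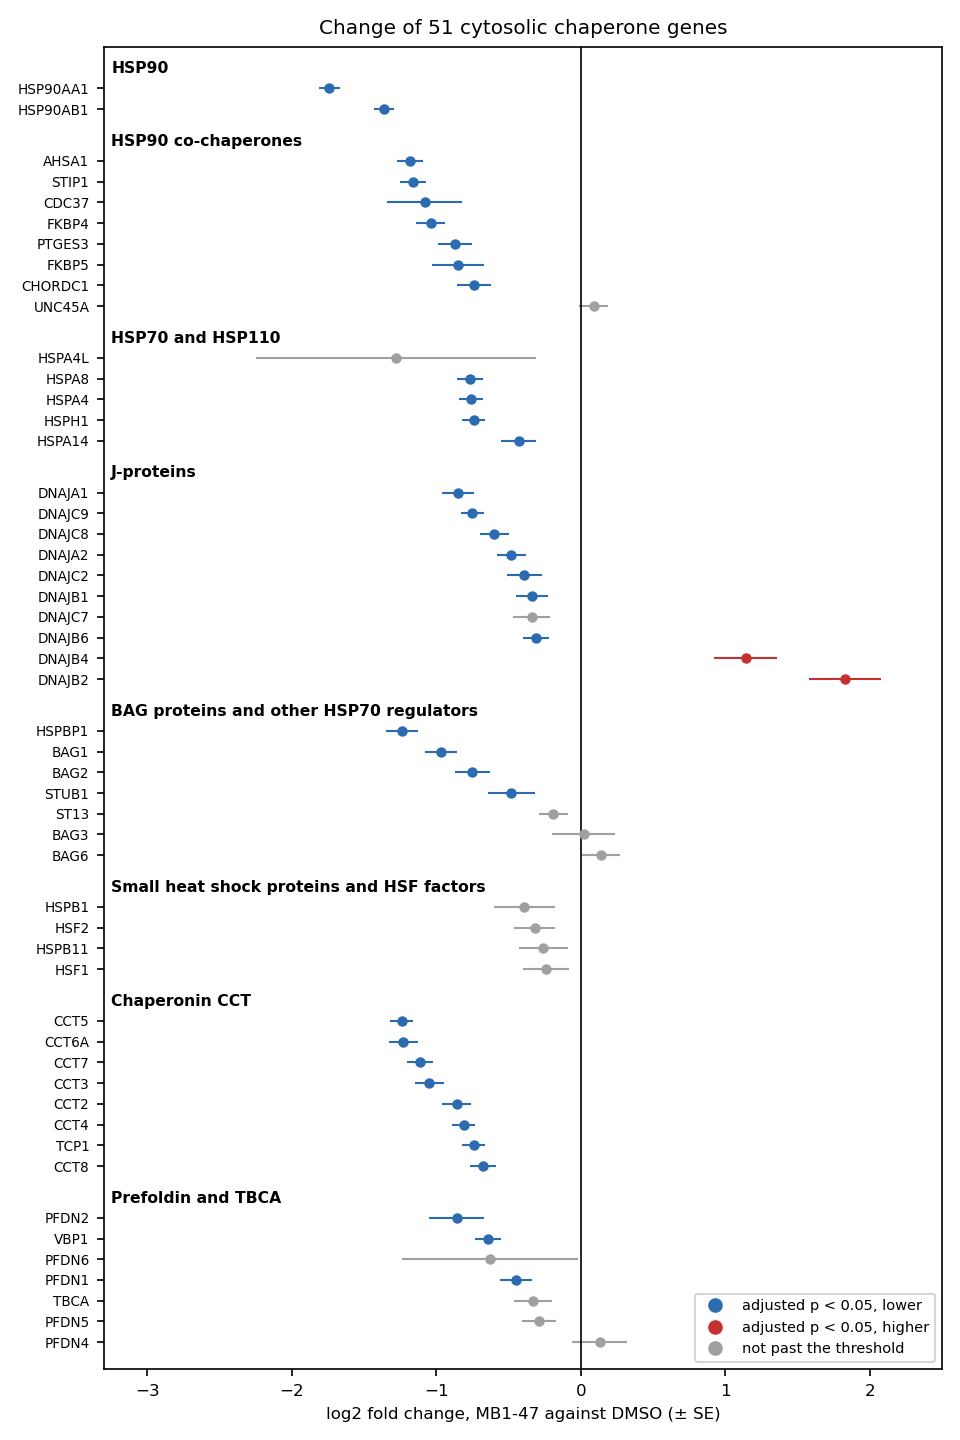
Log2 fold change of MB1-47 against DMSO with its SE on the horizontal axis for each of the 51 genes, grouped by role; blue marks genes past the threshold and lower, red past the threshold and higher, grey the others. All HSP90 and CCT genes lie to the left of 0, and DNAJB2 and DNAJB4 are the 2 genes past the threshold on the right.

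The calls were also counted by level. Among members with a mean of at least 10000 normalized counts, 15 of 16 were lower, where 48.3% of the 538 tested genes of that level were; ST13 was the other member. Between 1000 and 10000, 17 of 23 were lower (28.1% of all tested genes of that level), and below 1000, 3 of 12 were lower and 2 higher (11.5% and 12.1%). Across the 51 genes the Spearman correlation of the change with the mean level was -0.41, with transcript length -0.09 and with transcript GC content 0.00, values that describe these genes, which share the same 6 libraries.

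Promoter windows were searched for exact matches to the element that HSF1 binds. Windows from RefSeq (GRCh38.p14), 250 bases before to 50 after a gene's start, were found for 43 of the 51 members, in 65 windows. Searched on both strands, the 3-unit element (GAANNTTC, then any 2 bases, then GAA) was present in windows of HSP90AA1, HSP90AB1, HSPA8, CHORDC1, DNAJB6 and DNAJA1, that is in 9.23% of the members' windows and in 0.49% of all 35116 windows. The shorter 2-unit forms GAANNTTC and TTCNNGAA, which lie inside each 3-unit match, occurred in 27.7% of the members' windows and 13.5% of all windows. The stretches printed here are on the gene's strand with the matches in capitals. They show the 3-unit matches of HSP90AA1, HSP90AB1, HSPA8, CHORDC1 and DNAJB6, the genes with such a match before the start site, and the 2-unit match of DNAJB4, 1 of the 2 genes that rose. They lie at chr14:102087090-102087162 (HSP90AA1, minus strand), chr6:44247748-44247873 (HSP90AB1, plus strand), chr11:123062159-123062386 (HSPA8, minus strand), chr11:90223057-90223139 (CHORDC1, minus strand), chr7:157336843-157336915 (DNAJB6, plus strand) and chr1:78004811-78004878 (DNAJB4, plus strand).
HSP90AA1: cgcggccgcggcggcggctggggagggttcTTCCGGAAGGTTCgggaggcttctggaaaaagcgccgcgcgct
HSP90AB1: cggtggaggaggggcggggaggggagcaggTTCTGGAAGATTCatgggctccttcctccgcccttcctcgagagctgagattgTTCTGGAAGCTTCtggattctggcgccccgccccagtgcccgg
HSPA8: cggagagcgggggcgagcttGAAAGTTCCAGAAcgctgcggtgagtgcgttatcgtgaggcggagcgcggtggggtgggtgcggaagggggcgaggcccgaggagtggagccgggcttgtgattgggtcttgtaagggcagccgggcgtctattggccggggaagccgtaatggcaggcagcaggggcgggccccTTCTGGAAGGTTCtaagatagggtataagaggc
CHORDC1: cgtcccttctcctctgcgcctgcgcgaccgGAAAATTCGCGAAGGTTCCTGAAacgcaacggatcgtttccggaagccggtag
DNAJB6: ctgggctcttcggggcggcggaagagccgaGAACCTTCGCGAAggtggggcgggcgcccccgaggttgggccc
DNAJB4: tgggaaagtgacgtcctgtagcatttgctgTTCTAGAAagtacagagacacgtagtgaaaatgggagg
In HSP90AA1 the match begins 88 bases before the start site. HSP90AB1 and HSPA8 have 2 matches each, and CHORDC1 has 3 that overlap. The match in DNAJA1 begins 3 bases after the start site. All 6 genes with the 3-unit element were lower with MB1-47, with changes from -1.74 to -0.31 and a median of -0.81. Of the 10 members with a 2-unit form only, 6 were lower and 1 higher (median -0.74), and of the 27 with a window but neither form, 18 were lower and 1 higher (median -0.64). The medians were lower with more units, while the share that was lower did not follow the number of units. These groups of 6, 10 and 27 genes were not tested against each other. A match is a run of letters, not a measured binding site. Only exact letters in these windows were searched, so a gene without a match is not shown to lack the element.

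HSP90 showed the largest falls of the set. HSP90AA1, the stress-inducible cytosolic form on chromosome 14 from 102080738 to 102139699 (GENCODE 29, GRCh38), had 155399, 140662 and 150019 normalized counts in DMSO replicates 1 to 3 and 42995, 44391 and 45902 with MB1-47. By normalized counts, not corrected for length, it ranked 5 in every DMSO library and 23 to 26 with MB1-47. The change was -1.74 ± 0.07 on the log2 scale (3.35-fold lower, adjusted p = 1.76e-07), the ninth largest fall among the 538 genes with a mean of at least 10000. HSP90AB1, the constitutive form on chromosome 6 from 44246166 to 44253888, had 93132, 90625 and 94953 with DMSO and 33959, 38161 and 36707 with MB1-47 (-1.36 ± 0.07, adjusted p = 4.75e-07). No library of either gene crossed into the range of the other group. The log2 ratio of HSP90AA1 to HSP90AB1 stood at 0.74, 0.63 and 0.66 in the DMSO libraries and at 0.34, 0.22 and 0.32 in the MB1-47 libraries, a difference of -0.38. Its two-sided exact permutation p was 0.1, the smallest that 3 against 3 libraries can give. Rows named as HSP90 pseudogenes summed to at most 0.317% of both genes' level. Under quantile normalization HSP90AA1 changed by -1.13.

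HSP90 co-chaperones fell with it, apart from UNC45A. Of 8 genes, 7 passed toward lower values (87.5%, against 19.8% of all genes tested) and none toward higher ones (median -0.95). AHSA1, which stimulates the ATPase of HSP90, had 3193, 3051 and 3270 normalized counts with DMSO and 1384, 1381 and 1430 with MB1-47 (-1.18 ± 0.09, adjusted p = 4.16e-06). STIP1, the bridge between HSP70 and HSP90, went from 7152, 6502 and 7418 to 2911, 3163 and 3367 (-1.16 ± 0.09). FKBP4, an immunophilin of steroid receptor complexes, went from 6463, 6478 and 7476 to 2986, 3648 and 3330 (-1.04 ± 0.10). In these 3 genes every MB1-47 library was below the lowest DMSO library by a wide margin. PTGES3 (p23), which holds HSP90 in its closed form, read 42896, 32440 and 36102 with DMSO and 21573, 17210 and 22026 with MB1-47 (-0.87 ± 0.12, adjusted p = 1.87e-04). CDC37, the adaptor that brings kinases to HSP90, read 1419, 1517 and 1750 with DMSO and 442, 1012 and 886 with MB1-47 (-1.08 ± 0.26, adjusted p = 0.00639). Its MB1-47 replicate 1 lay far below the other treated libraries, and without that library the change was -0.72. FKBP5 (-0.85 ± 0.18), another immunophilin, and CHORDC1 (-0.74 ± 0.12), an HSP90-binding zinc protein, were also lower without overlap of the groups. UNC45A, a myosin chaperone that works with HSP90, stood at 2298 ± 111 with DMSO and 2439 ± 134 with MB1-47 (SD, n = 3; adjusted p = 0.523).

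**Figure D2:**
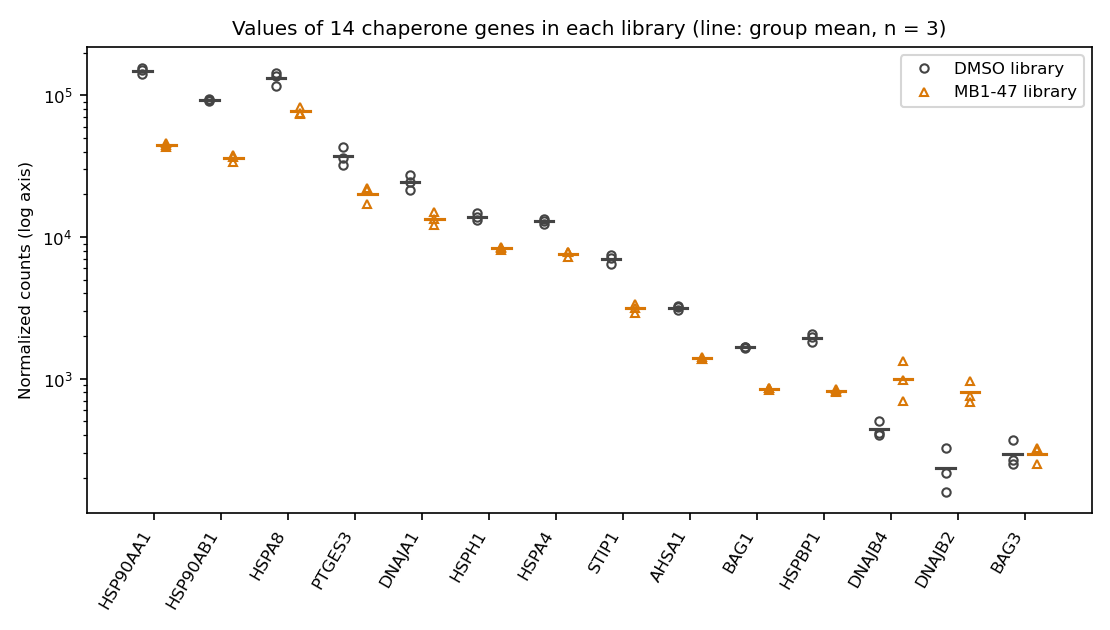
Normalized counts (log axis) of 14 genes in each DMSO library (circles) and MB1-47 library (triangles), with lines at the group means (n = 3); levels of different genes are not corrected for length. HSP90AA1 falls from at least 140662 in each DMSO library to at most 45902 in each MB1-47 library, BAG3 overlaps between the groups, and DNAJB2 and DNAJB4 are higher with MB1-47.

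Relative to the summed HSP90 genes, PTGES3, STIP1, AHSA1 and FKBP4 stood higher in the treated libraries. Normalized counts were divided by the length of 1 transcript per gene (APPRIS principal, GENCODE 29) to compare genes. On that scale HSP90AA1 and HSP90AB1 summed to 78748 ± 2833 per kb with DMSO and 26715 ± 1119 per kb with MB1-47 (SD, n = 3). PTGES3 amounted to 27.6%, 22.4% and 23.5% of that sum in the DMSO libraries and 44.2%, 32.7% and 42.0% in the MB1-47 libraries. STIP1 moved from 4.06% ± 0.155 to 5.36% ± 0.219, AHSA1 from 2.87% ± 0.0507 to 3.74% ± 0.144 and FKBP4 from 2.32% ± 0.183 to 3.33% ± 0.216 of the HSP90 sum. For these 4 genes the groups did not overlap. CDC37 overlapped, since MB1-47 replicate 1 was at 1.08% and DMSO replicate 1 at 1.09%. HSP90AA1 and HSP90AB1 fell more than each of these genes, so a higher mean share of their sum follows from the changes above. FKBP5, CHORDC1 and UNC45A were not compared with that sum, and the relative levels were not tested.

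HSP70 and HSP110 genes were mostly lower. Of 5 genes, 4 passed toward lower values (80%, against 19.8% of all genes tested) and none toward higher ones (median -0.76). HSPA8, the constitutive HSP70 of the cytosol on chromosome 11 from 123057489 to 123063230, had 144100, 116033 and 137665 normalized counts with DMSO and 75381, 73964 and 82974 with MB1-47 (-0.77 ± 0.09, adjusted p = 7.58e-05). By normalized counts, not corrected for length, it was row 6, 7 and 6 in the DMSO libraries and row 5 in each MB1-47 library. On that scale HSP90AA1 was above it in every DMSO library and below it in every MB1-47 library. Corrected for the length of 1 transcript per gene, HSPA8 was already above HSP90AA1 with DMSO, an order that depends on isoform use. It had 58506, 47111 and 55893 per kb in DMSO replicates 1 to 3, against 45989, 41628 and 44397 for HSP90AA1. With quantile normalization, which gives each rank the same value in every library, HSPA8 changed by 0.17 (adjusted p = 0.0258), the opposite direction; without any single library it stayed lower. The 10 rows named as HSPA8 pseudogenes held at most 0.0482% of its level. Per kb of transcript HSPA8 stood at 0.724, 0.624 and 0.699 of the HSP90 sum in the DMSO libraries and 1.20, 1.10 and 1.23 in the MB1-47 libraries. HSPA8 was thus below the sum of both HSP90 genes with DMSO and above it in all 3 treated libraries.

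HSPA4 and HSPH1, HSP110 proteins that act as exchange factors of HSP70, moved together. HSPA4 went from 12301, 12920 and 13429 to 7212, 7855 and 7811 (-0.76 ± 0.08, adjusted p = 2.50e-05). HSPH1 went from 13875, 13147 and 14721 to 8073, 8323 and 8572 (-0.74 ± 0.08, adjusted p = 2.74e-05). Neither gene's groups overlapped. HSPA14, an HSP70 relative that works on the ribosome with DNAJC2, read 5948, 4484 and 5418 with DMSO and 4028, 3492 and 4198 with MB1-47 (-0.43 ± 0.12, adjusted p = 0.0136); it missed the threshold without DMSO replicate 1 or 3. Its symbol has 2 loci in GENCODE 29, so no position is given. HSPA4L, another HSP110 gene, had few counts (22.3 ± 11.2 with DMSO, 12.0 ± 9.90 with MB1-47) and did not pass (adjusted p = 0.329).

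J-proteins were mostly lower. Of 10 genes, 7 were lower (70%, against 19.8% of all genes tested) and DNAJC7 did not pass. The 2 that were higher (20%) made a share near the 18.3% of all genes tested. The median of the 10 genes was -0.36. DNAJA1, a farnesylated partner of HSPA8 and the most abundant of them per kb, went from 27477, 21383 and 24353 to 13416, 12113 and 14970 (-0.85 ± 0.11, adjusted p = 1.03e-04). DNAJC9, which also handles histones H3 and H4, went from 5531, 5479 and 5936 to 3335, 3374 and 3380 (-0.75 ± 0.08). DNAJC8, a nuclear J-protein linked to splicing, went from 2649, 2361 and 2750 to 1671, 1759 and 1674 (-0.60 ± 0.10). The treated libraries lay close together in DNAJC8 and DNAJC9 and below every DMSO library. DNAJA2 (-0.48 ± 0.10), a relative of DNAJA1, was lower in all settings tried.

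DNAJB1, the classical stress-inducible J-protein, had 1743, 1730 and 1796 with DMSO and 1263, 1423 and 1492 with MB1-47 (-0.34 ± 0.11, adjusted p = 0.0288). DNAJC2 (-0.39 ± 0.12, adjusted p = 0.0273), which recruits HSP70 to the ribosome, and DNAJB6 (-0.31 ± 0.09, adjusted p = 0.0184), which suppresses aggregation, were of similar size. These 3 calls were lost without DMSO replicate 3, which left 4 J-proteins lower in place of 7, with equal library totals and without an intensity trend. DNAJB1 also lost its call without DMSO replicate 1 or 2 or MB1-47 replicate 1 and with GC and length trends removed, DNAJB6 without DMSO replicate 1 or MB1-47 replicate 2, and DNAJC2 without DMSO replicate 2 or MB1-47 replicate 1. DNAJC7 (-0.34 ± 0.13, adjusted p = 0.0574), a J-protein that binds both HSP70 and HSP90, did not pass. It did pass without MB1-47 replicate 2 (adjusted p = 0.0213) and with the filter at a mean of 50.

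DNAJB2 and DNAJB4 rose. DNAJB2, a J-protein with ubiquitin-interacting motifs on chromosome 2 from 219279267 to 219286900, had 326, 159 and 217 normalized counts with DMSO and 968, 761 and 690 with MB1-47 (1.83 ± 0.25, 3.55-fold higher, adjusted p = 2.06e-04). DNAJB4, a close relative of DNAJB1 on chromosome 1 from 77979175 to 78017964, had 500, 416 and 404 with DMSO and 1328, 697 and 979 with MB1-47 (1.14 ± 0.22, 2.21-fold higher, adjusted p = 0.00166). The lowest treated library was above the highest DMSO library in both. Per kb these genes remained a small part of the summed level of the 10 J-proteins: DNAJB2 made up 0.304% ± 0.0859 with DMSO and 1.56% ± 0.282 with MB1-47, and DNAJB4 0.617% ± 0.0479 and 2.05% ± 0.586. DNAJA1 made up 42.8% ± 1.79 and 34.8% ± 1.89.

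Regulators that bind HSP70 were partly lower. HSPBP1, BAG1, BAG2 and STUB1 were lower (57.1%, against 19.8% of all genes tested). BAG3, BAG6 and ST13 did not pass, and the median of the 7 was -0.48. HSPBP1, an exchange factor, had 1821, 1957 and 2056 with DMSO and 815, 810 and 840 with MB1-47 (-1.24 ± 0.11, adjusted p = 8.78e-06). BAG1, which links HSP70 to the proteasome, had 1676, 1641 and 1679 with DMSO and 860, 837 and 859 with MB1-47 (-0.97 ± 0.11, adjusted p = 4.27e-05). BAG2, which restrains STUB1, had 1327, 1317 and 1295 with DMSO and 735, 764 and 851 with MB1-47 (-0.75 ± 0.12, adjusted p = 5.09e-04). Libraries of 1 group differed little in these genes compared with the gap between groups. STUB1 (CHIP), the ubiquitin ligase that marks chaperone clients, had 843, 719 and 719 with DMSO and 580, 595 and 461 with MB1-47 (-0.48 ± 0.16, adjusted p = 0.0303). That call was lost without any of the 3 DMSO libraries or MB1-47 replicate 3, and with equal totals, no intensity trend or GC and length trends removed (adjusted p from 0.0245 to 0.157 over all settings). BAG3, a stress-inducible factor of selective autophagy, had 266, 250 and 371 with DMSO and 251, 316 and 323 with MB1-47 (0.02 ± 0.22, adjusted p = 0.960), with the groups fully mixed. BAG6, which guides tail-anchored proteins, changed by 0.14 ± 0.13 and ST13 (HIP), which stabilizes ADP-bound HSP70, by -0.19 ± 0.10.

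Transcripts of the heat shock factors and small heat shock proteins did not pass. HSF1, the main regulator of the heat shock response, had 943, 941 and 1172 with DMSO and 791, 750 and 1069 with MB1-47, so MB1-47 replicate 3 lay within the DMSO range (-0.24 ± 0.16, adjusted p = 0.282). HSPB1 (HSP27), which holds unfolded proteins without ATP, had 250, 296 and 339 with DMSO and 217, 261 and 196 with MB1-47 (-0.39 ± 0.21, adjusted p = 0.181). HSF2, a related factor, stood at 2389 ± 209 and 1925 ± 338 with no overlap of the groups (-0.32 ± 0.14, adjusted p = 0.0861). It passed without MB1-47 replicate 3 and with GC and length trends removed. HSPB11, a protein of intraflagellar transport despite its name, changed by -0.26 ± 0.17. HSF1 protein activity was not measured.

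All 8 CCT subunit genes were lower, with a median of -0.95 and a range from -1.24 to -0.68. Over all genes tested 19.8% were lower. Each CCT gene had a mean of at least 10000, a level at which 48.3% of all tested genes were lower. CCT5, on chromosome 5 from 10249921 to 10266412, went from 28220, 25075 and 28708 to 11245, 11567 and 11852 (-1.24 ± 0.08, adjusted p = 1.02e-06). CCT6A went from 18506, 17401 and 20607 to 7059, 8542 and 8495 (-1.23 ± 0.10). CCT7 went from 27338, 22631 and 25053 to 11236, 11121 and 12348 (-1.11 ± 0.09). Each of these subunits occupies 1 fixed place in both rings. CCT3 went from 14048, 13357 and 15191 to 5960, 7568 and 7155 (-1.05 ± 0.10), and CCT2 from 15731, 13858 and 14768 to 7912, 7271 and 9396 (-0.86 ± 0.10). TCP1, the founding subunit on chromosome 6, went from 28402, 24881 and 27807 to 15328, 15796 and 17596 (-0.74 ± 0.08, adjusted p = 5.46e-05). CCT4 (-0.81 ± 0.08) and CCT8 (-0.68 ± 0.09) completed the set, and no treated library reached the DMSO range in any subunit. All 8 calls held in each of the 17 alternative settings. Rows named as pseudogenes of TCP1, CCT7 and CCT8 held at most 0.279% of their parents' level, while 2 rows named as CCT6 pseudogenes held up to 12.9% of CCT6A and were not summed with it.

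Although CCT is built from equal numbers of its subunits, their transcripts differed in level. Per kb of transcript the highest subunit stood 1.98 ± 0.179 times above the lowest with DMSO and 2.22 ± 0.193 times with MB1-47 (SD, n = 3). CCT7 (13052 ± 1228 per kb), CCT4 (11176 ± 795) and TCP1 (10816 ± 754) led with DMSO and overlapped between neighbours in that order, and all their libraries were above those of the other 5. With MB1-47 the same 3 led, as TCP1 (6499 ± 479), CCT4 (6370 ± 281) and CCT7 (6038 ± 354), again overlapping. CCT3, CCT5 and CCT6A were lowest with MB1-47, at 3207 ± 388, 3144 ± 82.6 and 2954 ± 310 per kb. The lengths belong to 1 transcript per gene, so these levels depend on which isoforms the cells use.

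**Figure D3:**
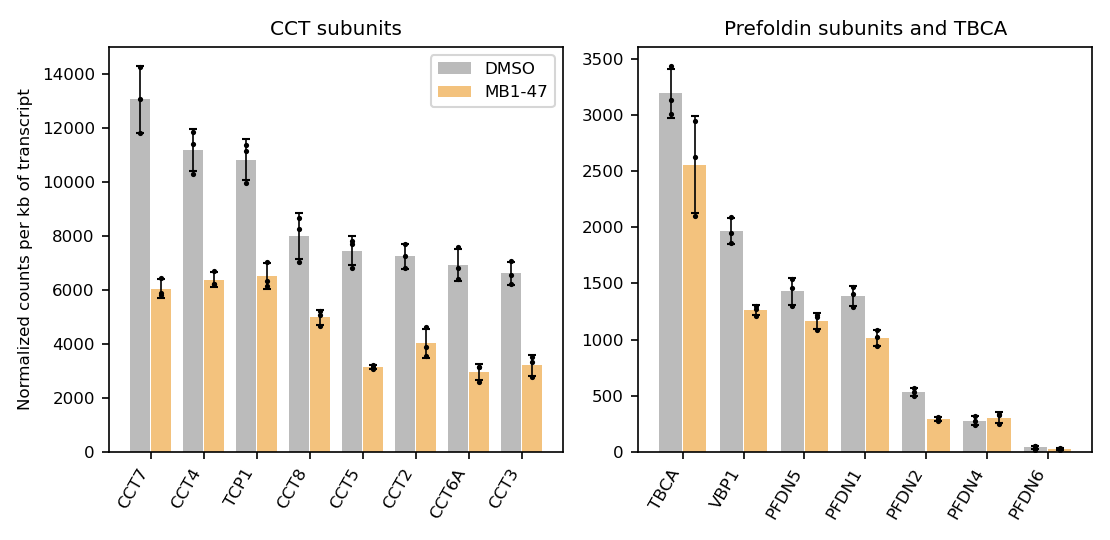
Normalized counts per kb of transcript for CCT subunits (left) and for prefoldin subunits with TBCA (right), on different vertical scales; bars are means of 3 libraries with DMSO (grey) or MB1-47 (orange), error bars are SD and dots are libraries. Every CCT bar is lower with MB1-47, while PFDN4 is not.

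Part of the prefoldin genes passed. Of 7 genes including TBCA, 3 passed toward lower values (42.9%, against 19.8% of all genes tested) and none toward higher ones. The median was -0.45, against -0.95 for CCT. The difference between the complexes was not tested. VBP1, an alpha-type subunit, went from 3523, 3142 and 3292 to 2188, 2152 and 2045 (-0.64 ± 0.09, adjusted p = 2.74e-04). PFDN2, a beta-type subunit, went from 363, 383 and 334 to 197, 185 and 211 (-0.86 ± 0.19, adjusted p = 0.00414). PFDN1, also beta-type, went from 1987, 1899 and 1745 to 1465, 1278 and 1379 (-0.45 ± 0.11, adjusted p = 0.00711). The groups were separate in all 3. PFDN5, the other alpha-type subunit, did not overlap between groups but missed the threshold (-0.29 ± 0.12, adjusted p = 0.0804). TBCA, which receives beta-tubulin after CCT, also missed it (-0.33 ± 0.13, adjusted p = 0.0708). TBCA passed without MB1-47 replicate 3 and with a replicate block. PFDN4 stood at 406 ± 57.9 and 445 ± 69.3 (adjusted p = 0.625), and PFDN6 was near the filter at 33.8 ± 14.8 and 20.6 ± 7.90 (adjusted p = 0.450). Per kb the mean CCT subunit exceeded the mean prefoldin subunit 9.47 ± 0.441 times with DMSO and 6.87 ± 0.357 times with MB1-47, without overlap of the groups.

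The set as a whole took up 2.33%, 2.18% and 2.32% of all normalized counts in the DMSO libraries and 1.20%, 1.25% and 1.28% in the MB1-47 libraries. HSP90AA1 and HSP90AB1 accounted for 0.759% ± 0.00648 and 0.277% ± 0.0149 of all normalized counts in the respective groups, and the 8 CCT subunits for 0.538% ± 0.0234 and 0.304% ± 0.0150. Without HSP90AA1, HSP90AB1 and HSPA8 the other 48 genes still went from 1.10% ± 0.0428 to 0.701% ± 0.0238.

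Related genes outside the set differed by list. Of 20 further HSP90 co-chaperones and client adaptors, 11 passed toward lower values (55%, against 19.8% of all genes tested). None passed toward higher ones, and 9 did not pass (median -0.52). RUVBL1 (-1.25 ± 0.11) and RUVBL2 (-1.11 ± 0.11), the ATPase pair of the R2TP complex, and NUDC (-1.17 ± 0.09) led them. Among 16 further tested HSP70, J-protein, BAG and heat shock genes, 3 were lower (HSBP1 at -0.82 ± 0.14, BAG5 at -0.61 ± 0.09 and BAG4 at -0.35 ± 0.13) and 2 higher (DNAJC6 at 0.60 ± 0.12 and DNAJB14 at 0.37 ± 0.12). With a median of 0.06, these shares (18.8% lower, 12.5% higher) lay near the 19.8% and 18.3% of all genes tested. HSPA6, an HSP70 gene that is silent without stress, stood at 1.07 ± 1.85 with DMSO and 6.22 ± 5.69 with MB1-47, below the filter. CCT partners, prefoldin-like proteins and tubulin cofactors numbered 3 lower and 2 higher of 12: TBCB (-0.73 ± 0.12), PDCL3 (-0.63 ± 0.11) and TBCD (-0.46 ± 0.09) were lower, and CCT6B (1.66 ± 0.49), a testis paralog of CCT6A, and TBCC (0.54 ± 0.15) were higher. The median of the 12 was -0.12, and the shares called (25.0% lower, 16.7% higher) again lay near those of all genes tested. CCT6B had few counts (14.1, 39.9 and 25.2 with DMSO, 97.8, 80.2 and 62.1 with MB1-47), and its call was lost without MB1-47 replicate 1 or 2.

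Relatives in the endoplasmic reticulum were more often higher than lower. Of 14 chaperones of that compartment, 6 were higher (42.9%) and 1 lower (7.14%), with a median of 0.22. Over all genes tested 18.3% were higher and 19.8% lower. HSPA5, its HSP70, went from 12666 ± 1006 to 24927 ± 1020 (0.98 ± 0.08), and HYOU1, its HSP110, changed by 1.19 ± 0.08. HSP90B1, its HSP90, changed by 0.45 ± 0.08. Of its J-proteins, DNAJB9 and DNAJC3 changed by 2.68 ± 0.18 and 1.16 ± 0.09. DNAJB11 (0.14 ± 0.11) and DNAJC10 (-0.03 ± 0.11) did not pass. CANX was lower (-0.89 ± 0.32, adjusted p = 0.0468) with overlapping groups, a call lost without DMSO replicate 1 or 3 or MB1-47 replicate 1. Of 10 mitochondrial chaperones 8 passed toward lower values (80%, against 19.8% of all genes tested) and none toward higher ones (median -0.62). HSPE1 (-2.08 ± 0.13), GRPEL1 (-1.40 ± 0.14) and HSPD1 (-1.33 ± 0.07) led, TRAP1, the mitochondrial HSP90, changed by -0.90 ± 0.15 and HSPA9, the mitochondrial HSP70, by -0.25 ± 0.08. The differences between compartments were not tested.

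**Figure D4:**
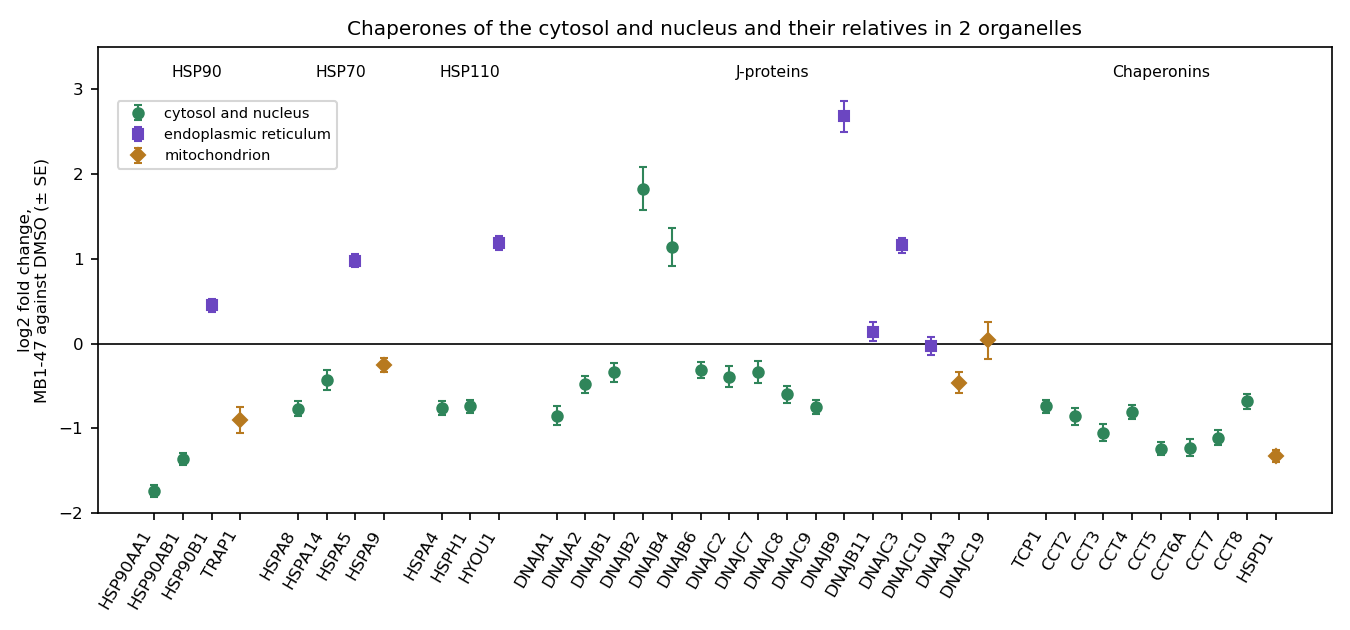
Log2 fold change of MB1-47 against DMSO (± SE) for HSP90, HSP70, HSP110, J-protein and chaperonin genes, coloured by the compartment of the protein. HSP90B1 (0.45), HSPA5 (0.98) and HYOU1 (1.19) of the endoplasmic reticulum lie above 0 and their relatives of the cytosol and mitochondrion below it.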

How the data were processed

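Per the labels and the submitters' processing notes, strand-specific libraries of total RNA were processed with kallisto 0.44.0 and DESeq on GRCh38.p13; for the annotation, the summing of transcripts and filters: not given in the sources used here. The deposited table holds a signal per gene symbol, the authors' normalized counts, which are not whole numbers (at most 64.3% of low values lay within 0.1 of a multiple of a common step), so no count test was run. Columns were matched to samples by name. No pair of libraries shared a value above 0.

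Genes with a mean of at least 10 were kept (13465), taken as log2(value + 1) and fitted with limma 3.58.1 in R 4.3.3 with an intensity trend; fold changes of low genes are understated on that scale. Adjusted p-values are Benjamini-Hochberg values over all genes tested, with a threshold of 0.05. The members and lists were chosen with earlier results of these data known. Values per library were given for 12 fixed genes, of which HSPA1A and HSPA1B were not analysed here, for up to 5 called genes per role group by size of change, and for called genes against their group's direction; other lists were named by their 3 largest called changes with a mean of at least 50, and further genes there were added after their values were seen. On simulated data for this comparison with 200 changed genes among 13465, 25.4% of 1.5-fold, 56.7% of 2-fold and 89.4% of 4-fold changes were recovered. In the data 38.1% of genes were called, and the Benjamini-Hochberg cutoff depends on that share. The simulated figures therefore do not give the recovery in the data. Positions and lengths are from GENCODE 29. Alternatives were other pseudocounts, filters and scalings, no trend, a replicate block, removal of GC and length trends, and each library left out. Figures were drawn with matplotlib 3.10.9.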

Additional observations from a re-analysis of the deposited data

How the results depend on the processing

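The count of lower chaperone genes stayed between 29 and 36 in place of 35 over 17 alternative settings, and 40 of the 51 genes kept their call in all of them. HSPA8 reversed to 0.17 with quantile normalization, making 1 HSP70 gene higher. Lower J-proteins numbered 4 in place of 7 with equal library totals or without an intensity trend, and 4 to 7 when single libraries were left out. Of the heat shock factors and small heat shock proteins, 1 gene (HSF2) was lower with GC and length trends removed, with or without the replicate block, and 0 to 1 when single libraries were left out. CDC37 and HSPA14 were not called without an intensity trend. Among further HSP90 co-chaperones, 1 was higher with equal totals and with GC and length trends removed, with or without the block, and 0 to 1 when libraries were left out. Among further HSP70 and J-protein genes the higher count was 4 with equal totals, 1 without a trend, 1 with GC and length trends removed (with or without the block), and 1 to 2 when libraries were left out; for CCT partners it was 0 to 2. Lower endoplasmic reticulum chaperones were 0 with scaling by the trimmed mean of M values, quantile normalization, equal totals or no trend, 2 with GC and length trends removed (with or without the block), and 0 to 1 when libraries were left out. The causes were not tested.

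Replicate numbers are shared by both groups, but same-numbered libraries did not deviate together (correlations of 0.0224, 0.0566 and 0.00724 over all genes). With the replicate block 36 chaperone genes were lower and 2 higher, and 2715 lower and 2531 higher over all genes. Summing PTGES3, HSPA8, TCP1, CCT7 and CCT8 with rows named as their pseudogenes changed none of their calls; CCT6A, HSP90AA1 and HSP90AB1 were not summed in this way; the planned sum of HSPA1A with HSPA1B and count-based tests were not run. Depth is unknown, so no limit from it is given for the low genes HSPA4L and PFDN6.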

Other observations

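Factors that act on chains as they leave the ribosome were partly lower. Of 5 genes, NAA15 (-1.12 ± 0.08, from 10949 ± 526 to 5045 ± 154 normalized counts, SD, n = 3) and NAA10 (-0.80 ± 0.15), subunits of the main N-terminal acetyltransferase, and BTF3 (-0.26 ± 0.09), a subunit of the nascent polypeptide-associated complex, passed toward lower values by limma's test, and none was higher. In the count of genes called, 3 of 5 compares with 19.8% of all genes tested.

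Outside the chaperone set, 42 other tested genes had the 3-unit heat shock element in a promoter window. Of these, 9 were lower (21.4%) and 5 higher (11.9%), with a median of -0.14. The share lower was near that of the 8372 other tested genes with a window and no 2-unit form. Of those, 1806 were lower (21.6%) and 1624 higher (19.4%), with a median of 0.01. The E-box CACGTG was in 6.15% of the members' windows and 7.26% of all windows, and the CCAAT box in 27.7% and 34.6%.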
